A study of Hipposideros armiger with 2 samples.

Results

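Secretoglobins, BPI-fold proteins, mucins and their helper genes were examined in 2 RNA libraries labelled liver, from the great Himalayan leaf-nosed bat, Hipposideros armiger. The set holds 10 gene names, chosen as genes of airway secretory cells and selected on TPM and count differences already measured in these libraries. Assembled genes were assigned to a member when their best Swiss-Prot match had its name: 7 of the 10 names were found, in 12 of 55378 assembled genes. The files hold 12783 distinct names in all. Both libraries belong to 1 group: wild-type bats of the CW cave, labelled as exposed to heavy metals. The series' design text describes adult males netted at night, and the label of replicate 2 gives the same age and sex. No group without the exposure was analysed here, so no effect of metals can be read from these values.

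Airway secretory cells line the conducting airways and coat them with a protein and mucin film. Club cells release small disulfide-linked secretoglobins, goblet cells and glands release the gel-forming mucins MUC5AC and MUC5B, and BPI-fold proteins in the same fluid bind lipids and bacterial products. AGR2 is an endoplasmic reticulum protein needed to fold mucins, SPDEF is a transcription factor of goblet cells, and TFF3 is a trefoil peptide released together with mucins. In liver these genes are not part of the hepatocyte programme, although bile duct and peribiliary gland epithelium can make mucins and trefoil peptides.

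The libraries held 18741214 and 18778280 rounded expected counts in replicates 1 and 2. The labelled tissue was checked with 18 hepatocyte markers, all of which were found. All 18 reached 10 TPM (a level corrected for transcript length and library depth) in replicate 1 and 5 did in replicate 2, with summed levels of 13002 and 385 TPM. The highest were ALB (7990 and 176 TPM), HPX (1392 and 44.2 TPM) and ASS1 (1003 and 33.1 TPM). Alveolar type II genes summed to 3939 and 6154 TPM, above the hepatocyte markers in replicate 2. The markers thus go against the label liver in replicate 2 and show lung genes beside hepatocyte genes in replicate 1; each level given here is that of a library labelled liver. The tissue the RNA came from was not tested. In contrast, the member names together gave 8446 TPM in replicate 1, and in replicate 2 13500 TPM. In bulk tissue, fewer cells of a type and less RNA per cell cannot be told apart.

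The members split by level into 3 abundant genes and 4 scarce ones. SCGB3A1, SCGB3A2 and AGR2 were at 10 TPM or more in both libraries. SCGB1A1 and BPIFA1 passed that level in replicate 2 only, and TFF3 and MUC5B in neither. No assembled gene had the name BPIFB1, MUC5AC or SPDEF. MUC5AC and SPDEF are listed as gene symbols by RefSeq for the assembly ASM189008v1 of this bat, whereas BPIFB1 and BPIFA1 are not. The name of the set as airway secretory genes therefore rests here on its secretoglobins and AGR2. Its classical club cell marker SCGB1A1 was scarce, and its gel-forming mucins were either low, with 21 and 2 counts for MUC5B against a detection floor of 3 counts, or had no assembled gene.

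**Figure D1:**
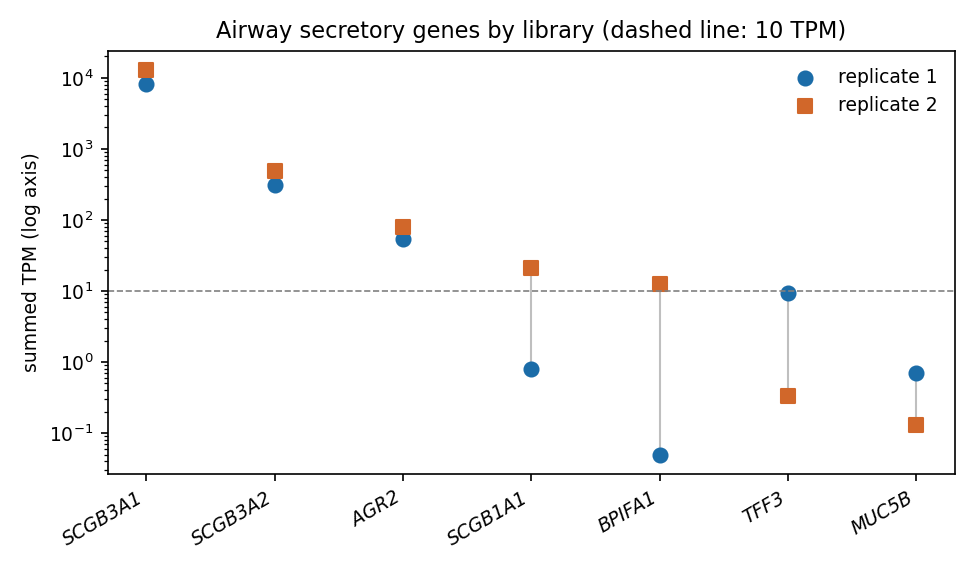
Summed TPM of the 7 member names found (log axis) in replicate 1 (circles) and replicate 2 (squares), ordered by mean level; the dashed line marks 10 TPM. SCGB3A1, SCGB3A2 and AGR2 lie above the line in both libraries, and the lower 4 names differ widely between the libraries.

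SCGB3A1, a secretoglobin of airway secretory cells, was the highest member by far. Its level was 8069 and 12898 TPM in replicates 1 and 2, a mean of 10484 ± 3414 (SD, n = 2). It ranked 15 and 13 among all 12783 names. It made up 95.5% of the members' summed TPM in each library, so any sum over the set is almost a measure of this gene alone. The other members together came to 376 and 602 TPM.

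The TPM of SCGB3A1 depended on the transcript length used, and how its reads were divided among its transcripts is not given. All of its reads, 51216 and 72242, came from 1 assembled gene with 5 transcripts and a listed length of 1427 bases. The other SCGB3A1 assembled gene, of 488 bases, had 0 counts in both libraries. In replicate 1 there were 6.35 counts behind each TPM of SCGB3A1. The median was 29.7 among 433 assembled genes with 1 transcript, at least 100 counts in each library and a listed length within 10% of 1427. The reads of SCGB3A1 were thus counted against a transcript length far below the listed one, by a factor of 4.68 in counts per TPM in replicate 1 and 4.70 in replicate 2. With levels recomputed from counts and listed lengths, an alternative added after the data were seen, SCGB3A1 was at 2806 and 4295 TPM. It was still the highest member, at ranks 22 and 17 of all names. As a share of expected counts, which use no length, SCGB3A1 held 0.273% of replicate 1 (Wilson 95% interval 0.271% to 0.276%) and 0.385% of replicate 2 (0.382% to 0.388%).

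**Figure D2:**
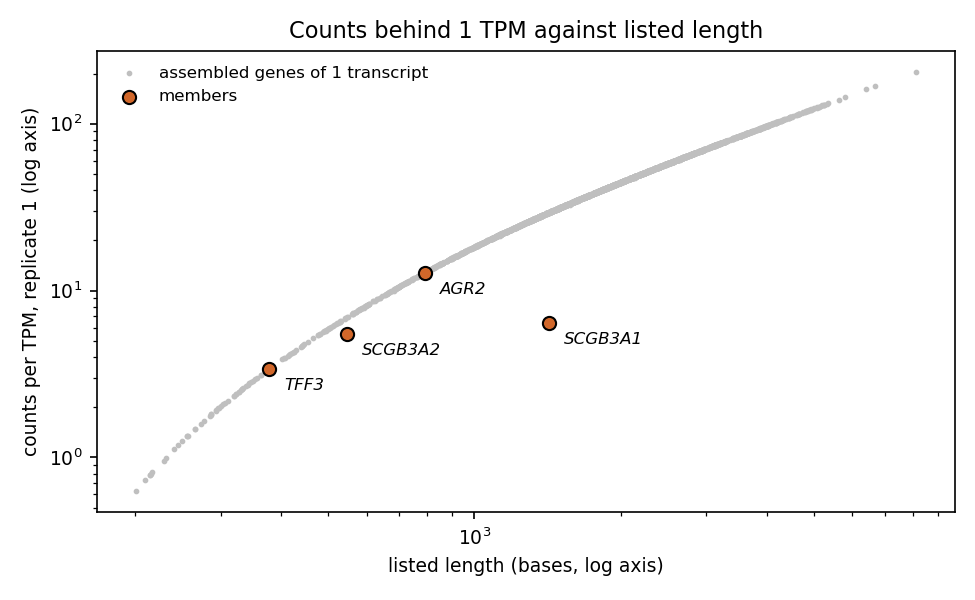
Counts behind 1 TPM in replicate 1 against listed length (both log axes) for 2904 assembled genes of 1 transcript with at least 100 counts in each library (grey) and the 4 members with at least 20 counts in that library. SCGB3A1 lies 4.68-fold below the median of genes of its listed length, SCGB3A2 lies 1.29-fold below that of its own, and AGR2 and TFF3 lie on the curve.

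SCGB3A2, a second secretoglobin of the same subfamily, was at 311 and 488 TPM, a mean of 400 ± 125 (SD, n = 2). It also came from 1 assembled gene, of 547 bases with 1710 and 2368 counts, while a second of 495 bases had 0. SCGB3A1 was 25.9 times as high in replicate 1 and 26.4 times in replicate 2 on the TPM scale. The ratio of these secretoglobins was thus almost equal in both libraries while the level of each was higher in replicate 2. With listed lengths the ratio was 11.5 and 11.7, less than 0.5 times the first values but again almost equal in both libraries. SCGB3A2 itself lay 1.29-fold below the median counts per TPM of its listed length in both libraries, under the 5th percentile of the genes compared.

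SCGB1A1, uteroglobin or club cell secretory protein, had 1 count in replicate 1 and 24 in replicate 2, which gave 0.79 and 21.4 TPM. Its only assembled gene was 251 bases long, so that few reads gave a level above 10 TPM. On the scaled count ratio used below it was 20.02 times as high in replicate 2, with an exact 95% interval for counting error from 3.26 to 823. Even in replicate 2, where SCGB1A1 was higher, SCGB3A2 was 22.8 times as high as SCGB1A1 in TPM. With listed lengths it was 45.3 times as high, and SCGB1A1 was at 8.11 TPM.

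Of the other secretoglobins, 1 of 9 listed names was found: SCGB2A2, mammaglobin-A, at 25.9 and 30.1 TPM (77 and 104 counts). SCGB3A2 was 12.0 and 16.2 times as high, or 18.9 and 19.4 times with listed lengths. The reads with a secretoglobin name therefore came almost wholly from SCGB3A1 and SCGB3A2 in both libraries.

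BPIFA1, the BPI-fold protein also called SPLUNC1 that is secreted in the upper airways, differed most between the libraries. It had 1 count in replicate 1 and 224 in replicate 2, all in 1 assembled gene of 1073 bases, which gave 0.05 and 12.5 TPM. The scaled count ratio was 187, with an exact 95% interval from 33.2 to 7411; the single count in replicate 1 has an exact Poisson interval from 0.0253 to 5.57. Replicate 2 was the higher, at rank 5618 of all 12783 names, and replicate 1 was below the floor of 3 counts. With 1 library each there is no replicate check of this difference.

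Of 11 other BPI-fold names, 3 were found. BPI, an antibacterial protein of neutrophil granules, was at 7.92 and 5.54 TPM, and LBP, the lipopolysaccharide-binding plasma protein made by liver, at 5.44 and 3.09 TPM. PLTP, which transfers phospholipids between lipoproteins, was at 15.2 and 19.7 TPM. BPI and LBP were lower in replicate 2 (log2 ratios of -0.81 and -0.90) and PLTP was close to 0 (0.02). The much higher value of BPIFA1 in replicate 2 was thus not shared by these 3 genes of its family.

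The gel-forming mucin MUC5B was low in replicate 1 and under the floor in replicate 2. Its 4 assembled genes summed to 3281 bases and carried parts of the mucin, among them von Willebrand type D and cystine knot domains. They held 21 counts in replicate 1 and 2 in replicate 2, or 0.71 and 0.13 TPM. Of these, 17 and 0 counts fell on the part with the cystine knot domain, 4 and 2 on a part of 990 bases, and 0 on the other parts. The scaled count ratio was 0.0794, with an exact 95% interval from 0.00903 to 0.325.

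TFF3 had levels of 9.42 and 0.33 TPM in replicates 1 and 2, from 32 counts and 1 count on an assembled gene of 378 bases. The scaled count ratio was 0.0261, with an exact 95% interval from 0.00064 to 0.156. Beside this, the 18 hepatocyte markers had a median scaled count ratio of 0.0279 and a range from 0.0187 to 0.303, with TF alone at the upper end. TFF3 and MUC5B, though low in both libraries, were thus higher in the library in which hepatocyte markers were high. BPIFA1 and SCGB1A1 were higher in the other. The part of the hepatocyte content in these differences was not tested.

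AGR2 was at 54.2 and 79.5 TPM, a mean of 66.9 ± 17.9 (SD, n = 2), from 689 and 899 counts on 1 assembled gene of 791 bases. Its counts per TPM (12.7 and 11.3) were near the medians for that length (13.2 and 11.7). Its paralog AGR3, an endoplasmic reticulum protein of ciliated airway cells, was at 9.02 and 13.0 TPM, so AGR2 was 6.01 and 6.12 times as high.

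In the order of mean levels, the 2 values of SCGB3A1 did not overlap those of SCGB3A2, nor those of SCGB3A2 with AGR2 or of AGR2 with SCGB1A1. Below AGR2 the ranges of neighbours overlapped, from SCGB1A1 to BPIFA1, TFF3 and MUC5B. The order within each of these pairs is therefore not set by the data. Both values of SCGB1A1 (0.79 and 21.4 TPM) lay above those of MUC5B (0.71 and 0.13 TPM). The lower value of SCGB1A1 rests on 1 count. The 3 names nearest to SCGB3A1 by distance over log2(TPM + 1) in the 2 libraries were MT-ND1 (9198 and 8694 TPM; distance 0.60), HBB (12118 and 14934 TPM; 0.62) and HP (5160 and 6997 TPM; 1.09). With 2 libraries such a likeness reflects the level alone.

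The libraries were then compared with each other, as the only contrast that the files allow. Counts were summed by name, scaled by TMM (a factor that corrects library size for composition) to CPM, a count per unit of library size, and turned into log2(CPM + 1). The log2 ratio is replicate 2 less replicate 1, with the median of all names removed, for names with a mean of at least 1 CPM. Of the 7 member names, 4 met that minimum, and 1 of the 4, BPIFA1, was over 2-fold apart. Among all 11289 names tested, 5.19% were over 2-fold apart: 3 higher in replicate 2 (0.0266%) and 583 lower (5.16%). BPIFA1 had a log2 ratio of 3.50, above all other names. Its scaled CPM were 0.0587 and 10.9, so it met the minimum only through the library in which it is higher. The other 2 higher names, given after their values were seen, were TMEM116 (1.08) and LYZ2 (1.07). The members were proposed with this contrast known, and nothing is drawn from the count.

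The abundant members lay within the spread of all names. The log2 ratios were 0.23 for SCGB3A1, 0.21 for SCGB3A2 and 0.12 for AGR2, where the 5th to 95th percentiles of all names ran from -1.04 to 0.31. Of the names tested, 89.2% lay below SCGB3A1, 86.4% below SCGB3A2 and 72.9% below AGR2. The scaled count ratio was 1.18 for SCGB3A1 (exact 95% interval 1.16 to 1.19), 1.15 for SCGB3A2 (1.08 to 1.23) and 1.09 for AGR2 (0.984 to 1.20), so that only the interval of AGR2 includes 1. All intervals here reflect counting error alone, because they are computed from the counts and hold no spread between animals. PCR copies of a molecule cannot be told from separate molecules in these reads, so even that error may be understated. TPM gave larger ratios, 1.60, 1.57 and 1.47. Count ratios before scaling were 1.41, 1.38 and 1.30, so part of this gap comes from the scaling of counts. TPM ratios also exceeded count ratios before scaling in other genes. Across 11387 assembled genes with at least 100 counts in each library, the TPM ratio was a median 1.13 times the count ratio before scaling.

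**Figure D3:**
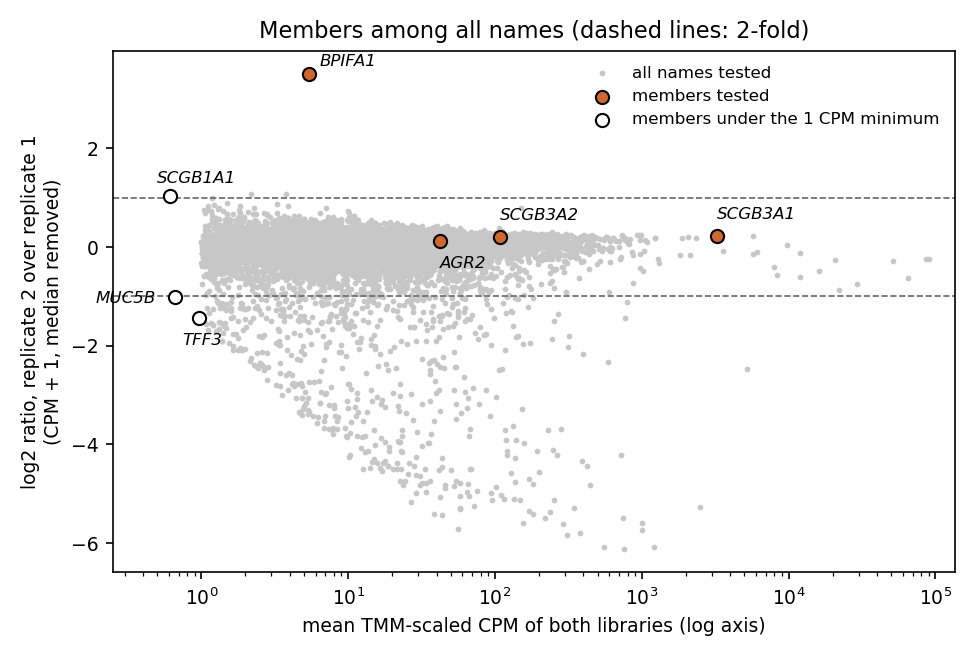
Log2 ratio of replicate 2 over replicate 1 (CPM + 1, median removed) against mean scaled CPM (log axis) for the 11289 names tested (grey), the 4 members tested (filled) and the 3 members under the minimum of 1 CPM (open); dashed lines mark 2-fold. SCGB3A1, SCGB3A2 and AGR2 lie in the body of the cloud and BPIFA1 above all other names.

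Without a minimum level, 4 of 7 members were over 2-fold apart, against 4.82% of 12684 names (0.0315% higher and 4.79% lower): BPIFA1 (3.50) and SCGB1A1 (1.05) higher in replicate 2, and TFF3 (-1.44) and MUC5B (-1.01) lower. The pseudocount of 1 CPM pulls such low genes towards 0, and the scaled count ratios above carry the counting error. Each of these 4 genes had 1 or 2 counts in its lower library. On the TPM scale, log2(TPM + 1) with the median removed, 3 of 6 members were over 2-fold apart, against 9.10% of 12326 names (171 higher and 951 lower).

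**Figure D4:**
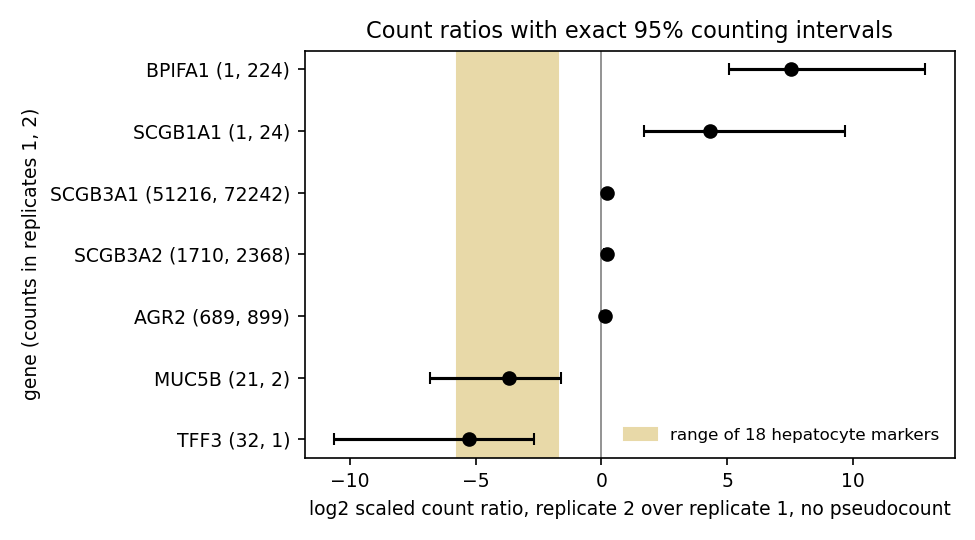
Log2 scaled count ratio of replicate 2 over replicate 1, without a pseudocount, with exact 95% intervals for counting error; the numbers beside each gene are its counts in replicates 1 and 2, and the shaded band is the range of the 18 hepatocyte markers. The points of MUC5B and TFF3 lie inside the band, and those of the abundant members lie just above 0. The upper end of the band is set by TF alone (245 and 89 counts). The next marker, TAT, had a count ratio before scaling of 0.0889, below the 0.0952 of MUC5B. The interval of MUC5B, with 2 counts in replicate 2, runs past both ends of the band.

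Genes that act with the members were measured from lists of the same biology. Of 18 other mucins and trefoil factors, 7 were found. The membrane mucins MUC1 (101 and 152 TPM) and MUC4 (52.2 and 78.9 TPM) led, with the trefoil peptide TFF2 at 18.4 and 33.1 TPM and MUC20 at 19.0 and 17.4 TPM. The gel-forming MUC2 of the intestine and the small mucin-like MUCL1 had 0 counts. The membrane mucins found therefore exceeded the assembled parts of the gel-forming MUC5B and MUC2 in both libraries. The gel-forming MUC5AC, MUC6 and MUC19 had no assembled gene, so they could not be compared. Of 5 tested, 0 were over 2-fold apart, against 5.19% of all names, with a median log2 ratio of 0.16 (0.00 for all names). In lists this short, here and below, nothing is drawn from such counts.

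For mucin folding, glycosylation and granule release, 24 of 31 names were found, with a summed level of 620 and 787 TPM. VAMP8, a SNARE of granule fusion, was at 210 and 286 TPM, and SSR4, part of the translocon-associated complex, at 111 and 129 TPM. XBP1, a transcription factor of secretory capacity, was at 51.4 and 65.4 TPM, and the signal peptidase subunit SEC11C at 27.7 and 37.7 TPM. These are used by many secretory cells. ERN2, the stress sensor of mucous cells, and the mucin-type glycosyltransferases GCNT3, B3GNT6 and ST6GALNAC1 were among the names with no assembled gene. Of 23 tested, 0 were over 2-fold apart (5.19% of all names), with a median of 0.03.

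Of 14 transcription factors of the secretory lineage, 10 were found. The epithelial factor ELF3 was at 65.7 and 102 TPM, and NKX2-1, which specifies lung epithelium, at 45.8 and 70.2 TPM. The Notch target HES1 was at 40.5 and 61.9 TPM and CEBPD at 40.3 and 45.2 TPM. FOXA3, a factor of goblet cells and hepatocytes, had no assembled gene. Of 9 tested, 0 were over 2-fold apart (5.19% of all names), with a median of 0.18.

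Markers of the cells that could hold these transcripts were counted beside the members. Of 17 club cell names 15 were found, led by HP (5160 and 6997 TPM), the secreted inhibitor-like protein WFDC2 (819 and 1274 TPM) and the cytochrome P450 CYP4B1 (350 and 457 TPM). HP is also a plasma protein of hepatocytes. Of 11 tested, 1 was over 2-fold apart (5.19% of all names), GSTA4 (log2 ratio -1.60), and the median was 0.12. CYP2F2, a classical club cell enzyme of rodents, was listed at 0 in replicate 1 and at 5.33 TPM in replicate 2.

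Of 16 names of gland serous cells and airway antimicrobial proteins 10 were found, led by LCN2 (2019 and 3158 TPM), S100A9 (354 and 517 TPM) and LPO, the lactoperoxidase of airway fluid (311 and 468 TPM). LCN2 and S100A9 are also made by neutrophils. AZGP1, a plasma and gland protein, was over 2-fold lower in replicate 2 (log2 ratio -3.95), and PIP had 0 counts. Of 8 tested, AZGP1 was the 1 over 2-fold apart (5.19% of all names), and the median was 0.12. The gut and stomach goblet list had 7 of 13 names, which summed to 32.4 and 57.0 TPM, led by TFF2, ZG16 (6.88 and 12.0 TPM) and GKN1 (2.96 and 6.57 TPM).

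Ciliated and alveolar genes had median log2 ratios near those of the abundant members, which was not particular to them. The medians above were 0.16 for other mucins and trefoil factors and 0.18 for secretory lineage transcription factors. They were 0.12 for the club cell and the gland serous lists, and 0.03 for mucin folding, glycosylation and granule release. That of airway basal cell genes was lower. Ciliated cell genes (17 of 18 found) summed to 754 and 1053 TPM, with TPPP3 at 286 and 450 TPM, DNAI2 at 54.4 and 88.4 TPM and FOXJ1 at 54.3 and 84.3 TPM. TUBB4B of the same list was lower in replicate 2, with a log2 ratio of -0.61. Alveolar type II genes (11 of 12) summed to 3939 and 6154 TPM, led by SFTPC (2554 and 4047 TPM), SFTPB (462 and 714 TPM) and SFTPA1 (358 and 547 TPM). Alveolar type I genes (9 of 9) summed to 832 and 1313 TPM, led by AGER (456 and 729 TPM), CAV1 (122 and 188 TPM) and EMP2 (101 and 156 TPM), while HOPX had 0 counts. The median log2 ratios were 0.16, 0.19 and 0.19, beside 0.23 for SCGB3A1, 0.21 for SCGB3A2 and 0.12 for AGR2. Of the genes tested in these lists 0 were over 2-fold apart, against 5.19% of all names. SCGB3A1 was 3.16 and 3.19 times as high in TPM as SFTPC, the type II surfactant protein, but the order turned with the length used. With listed lengths the ratio was 0.974 and 0.977, and SFTPC held more counts than SCGB3A1 in both libraries (90007 and 126634).

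Airway basal cell genes (7 of 7) summed to 77.6 and 109 TPM, led by AQP3 (23.0 and 37.1 TPM), KRT17 (20.7 and 31.9 TPM) and DAPL1 (17.8 and 19.4 TPM). Their median log2 ratio was -0.12, with a range from -0.76 to 0.26 over 5 tested. AQP3 (0.26) and KRT17 (0.10) were above 0, and KRT5 (-0.12), DAPL1 (-0.27) and NGFR (-0.76) below. Of 10 neuroendocrine and ionocyte names only CHGA was found, at 1.85 and 3.05 TPM. Cholangiocyte names (9 of 12) summed to 746 and 1048 TPM, led by the epithelial keratins KRT19 (278 and 430 TPM) and KRT7 (194 and 301 TPM); this list shares TFF3 and MUC1 with those above, and SOX9, CFTR and SCTR had no assembled gene. Which cells held the transcripts of the members was not tested.

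**Figure D5:**
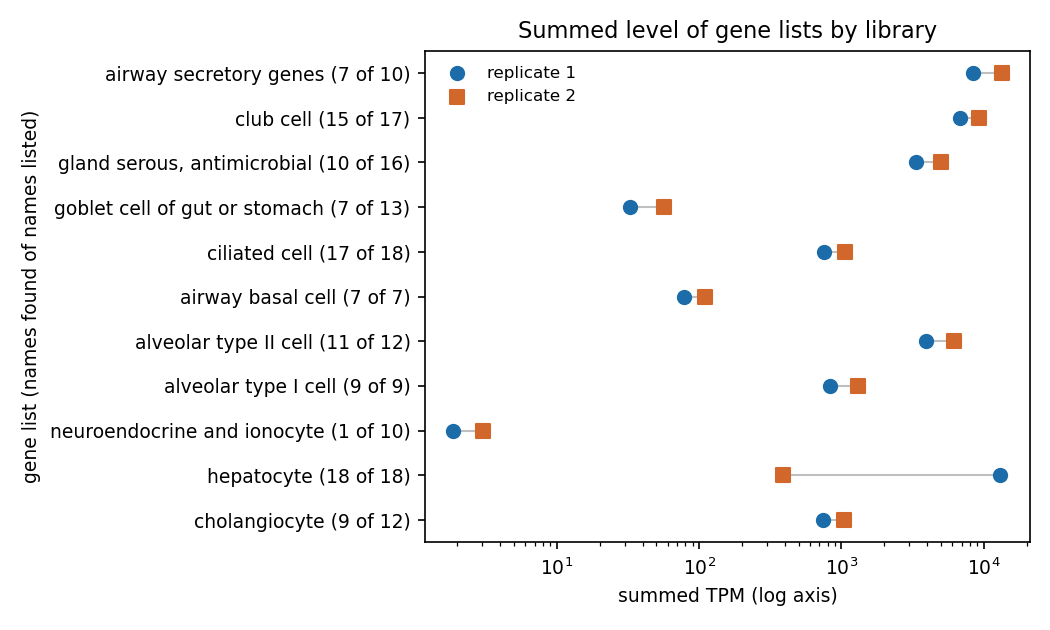
Summed TPM (log axis) of the airway secretory genes and of 10 cell type lists in replicate 1 (circles) and replicate 2 (squares), with the names found of those listed. The hepatocyte list is at 13002 and 385 TPM, while each of the other lists is higher in replicate 2 on this scale.

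The annotation of the members follows from the proteins they were matched to. Of their 12 assembled genes, 11 (91.7%) carried the gene ontology term extracellular space or extracellular region, against 7.40% of all named assembled genes. The exception was that of TFF3. Most members are secreted proteins, so such a share follows from the choice of members. The best matches were human for 7, mouse for 4 and pig for 1. The matched species is that of the closest protein entry, not of the transcript. Of the 12, 4 had 0 counts in both libraries (33.3%), against 2430 of all 55378 (4.39%): 2 parts of MUC5B and the second assembled genes of SCGB3A1 and SCGB3A2. The assembled genes have no genome position in the files, and no coordinates are given.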

How the data were processed

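Poly(A) RNA from the 2 CW libraries was measured by sequencing. Each library has its own table, deposited by the authors, over a shared set of Trinity assembled genes; per the submitters' processing notes cutadapt 1.9 was used, and mm10 is named for replicate 1 only. Assembler version and quantifier are not given in the sources used here. The expected counts, deposited by the authors with decimals, were rounded to whole numbers. The other deposited column was read as TPM because it sums to 996837 and 996239; its header gives no unit.

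TPM and counts were summed over assembled genes of 1 name. TMM factors (0.9096 and 1.0993) came from edgeR 4.0.16 in R 4.3.3 on all assembled genes. Scaled count ratios have no pseudocount and exact binomial intervals. No p-value was computed, since both libraries belong to 1 group. Where nothing shows separate animals, the SD may be technical. The ratio procedure was tested on simulated data with 200 changed names. The changes were 4-fold and 16-fold, past the 2-fold threshold, and were placed on names well above the minimum of 1 CPM. The simulation therefore does not cover SCGB1A1, TFF3 and MUC5B, which lay under that minimum. Nor does it cover a difference as wide as that of BPIFA1, with a scaled count ratio of 187. It used a small spread around each mean and no shift of many names in a single direction like that seen here.

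The members and lists were chosen with earlier results of these data known. Named genes were all members, the 4 highest of each pathway list with any over 2-fold apart, and the 3 highest of each cell type list with markers at the floor; others were chosen after their values were seen. Alternatives were other scalings, pseudocounts, filters and level thresholds, single assembled genes, mammalian best matches, and each library alone. Python 3.11.15 was used with scipy 1.17.1, pandas 2.3.3, numpy 2.4.6 and, for figures, matplotlib 3.10.9.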

Additional observations from a re-analysis of the deposited data

How the results depend on the processing

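The members' share of all TPM was a mean of 1.101% and ranged from 0.847% to 1.36% with 1 library left out. It was 0.345% of expected counts, 0.396% with TPM recomputed from listed lengths, and 1.49% against a total without the 10 highest assembled genes, because the denominator is smaller. SCGB3A1 held 95.54% of the members' TPM, 95.54% with only the highest assembled gene of each name, 95.39% of their counts, and 89.75% on listed lengths; the last 3 differ from the first by more than a very small SD. The 3 names at 10 TPM in both libraries were 3 to 5 with 1 library left out. They were 3 at a level of 1 TPM and 2 at 100 TPM, which AGR2 (54.2 and 79.5 TPM) did not reach. The 1 member over 2-fold apart became 4 without a minimum level, 3 on the TPM scale and 0 with the minimum mean raised to 10 CPM, which leaves BPIFA1 untested. All names over 2-fold apart were 586 of 11289 (5.19%), then 343 of 7555 (4.54%) at 10 CPM and 1122 of 12326 (9.1%) on TPM. Library size scaling left the median of all names at 0.24 and gave 0.49 for SCGB3A1, 0.46 for SCGB3A2 and 0.37 for AGR2. The log2 ratio of BPIFA1 was 6.12 with a pseudocount of 0.1 CPM and 3.35 to 3.62 under the other settings. No tested member changed its sign under any setting run. Listed lengths, and centring on names without hepatocyte and mitochondrial genes, were added after the data were seen. A ratio without 1 library cannot be formed. No paired analysis was possible because both libraries share the single group. Depth limits SCGB1A1, TFF3 and MUC5B, which had 25, 33 and 23 counts in all.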

Other observations

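Families were also collected by protein domain, a search chosen after the values were seen. The Uteroglobin domain was on 8 assembled genes with 5 names, which summed to 8422 and 13455 TPM; SCGB3A1 held 95.8% and 95.9% of this. The non-members with reads were SCGB2A2 and CH1, a match to chain 1 of the cat secretoglobin allergen, at 15.0 and 17.1 TPM. The partner domain Feld-I_B was on 4 assembled genes, 2 of them with the name CH2, at 28.5 and 33.2 TPM in sum. The names CH1 and CH2 show only the closest Swiss-Prot entry.

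The Trefoil domain was on 4 assembled genes, and TFF3 held 29.1% of their TPM in replicate 1 and 0.947% in replicate 2; TFF2 was higher in both. Of 6 assembled genes with a BPI-fold domain, BPIFA1 held 0.175% and 30.6% of TPM.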
